A study of Danio rerio with 2 samples.

Results

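The collagen genes of the zebrafish were followed across the cell types of the 27 hpf (hours post fertilization) trunk in a wildtype library and a miR-223 mutant library of single cells. They were taken by symbol, as every feature whose name starts with col, a type number, the letter a and a chain number. The rule matched 56 of the 27771 features listed. Of these, 2 (col4a3bpa and col4a3bpb) are ceramide transfer proteins named for binding a type IV collagen, and the remaining 54 collagen genes of 21 types are described here. By structural class they were 15 fibrillar, 12 fibril-associated, 6 basement membrane (type IV), 5 beaded filament (type VI), 5 network-forming, 3 multiplexin, 2 anchoring, 2 transmembrane and 4 type XXVIII genes.

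Collagens are secreted proteins of 3 chains wound into a triple helix. Fibrillar collagens (types I, II, V and XI among them) assemble into the load-bearing fibrils of skin, tendon, cartilage and the notochord sheath, and fibril-associated collagens coat those fibrils. Type IV collagen forms the meshwork of every basement membrane, including the one on which endothelial cells rest, and the multiplexin type XVIII, a basement membrane proteoglycan, carries the fragment endostatin, known as an inhibitor of vessel growth.

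Trunks of embryos at 27 hpf were dissociated, cells with the Tg(kdrl:hras-mCherry)s896 reporter of endothelial cells were sorted, and transcript 3′ ends were counted in droplets. Both groups carried that reporter and Tg(5xUAS:eGFP)nkuasgfp1a. The wildtype group also carried Tg(miR-223:KalTA4)ya362, and the mutant group carried Tg(miR-223:KalTA4)ya363 and the allele miR-223(ya303), so the KalTA4 lines differed between the groups as well. Each group was 1 library, and the number of embryos behind it is not given in the labels. The genotypes rest on the labels, because mir223 itself was not analysed here. With 1 library per genotype there is no replicate and no test. Genotype cannot be told apart from clutch, sort or library preparation, and every interval below is a 95% interval that covers counting error only.

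The libraries held 8702 wildtype and 9176 mutant barcodes with 92241952 and 125149083 unique molecular identifiers (UMIs, 1 per captured transcript), and 98 barcode sequences occurred in both. The authors' table of 15 clusters covers 6227 wildtype and 6125 mutant cells, by cell numbers that were inferred from its values. By marker genes, 6 of these clusters were endothelial-like (clusters 0, 1, 2, 3, 5 and 6, of which 3 was arterial-like and 0, 2 and 5 venous-like). The others were erythroid-like (4), mesenchymal-like (7), hematopoietic progenitor-like (8), neural-like (9), muscle-like (10), myeloid-like (11 and 14) and epidermal-like (13). Cluster 12 scored highest for cartilage markers (cnmd, snorc and epyc) but also held the notochord genes tbxta, at 1359 CPM (UMIs of a gene per 1000000 UMIs of the cluster), and shha, at 366 CPM, and is called the notochord and cartilage-marker cluster. Not all markers were high in it: the notochord gene noto stood at 1.45 CPM, below its 9.44 CPM in cluster 9. The cartilage genes acana and sox9a stood at 20.3 and 4.36 CPM. The sort was labelled endothelial, so the other types are cells that passed it. Venous-like cells fell into clusters split by library: cluster 2 held 1925 wildtype and 31 mutant cells, and cluster 0 held 283 and 1846.

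Of the 54 collagen genes, 49 had a UMI in at least 1 library, 44 had one in both, and 38 are listed in the authors' table. The 16 that are not in the table had at most 9 UMIs over both libraries, among them both type X genes and both type XVII genes. Symbols were shared by 4 features (2 named col6a3 and 2 named col19a1), and of each pair the feature in the authors' table, which had nearly all UMIs, is the one described (col6a3 and col19a1.1). Collagen levels varied mainly with cell type. Summed over the 38 genes, collagens took 62902 CPM in wildtype and 61136 CPM in the mutant cells of the notochord and cartilage-marker cluster. Epidermal-like cells followed with 6094 and 5190 CPM, then mesenchymal-like cells with 3861 and 3623 CPM, and neural-like cells with 1638 and 2432 CPM. Muscle-like cells held 617 and 579 CPM. The 6 endothelial-like clusters lay between 62.5 and 224 CPM in either library, and erythroid-like cells, which are not known to make collagen, held 25.7 CPM in wildtype and 51.7 CPM in the mutant library. That last pair of values shows the level that collagen transcripts reached in cells of another type.

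**Figure D1:**
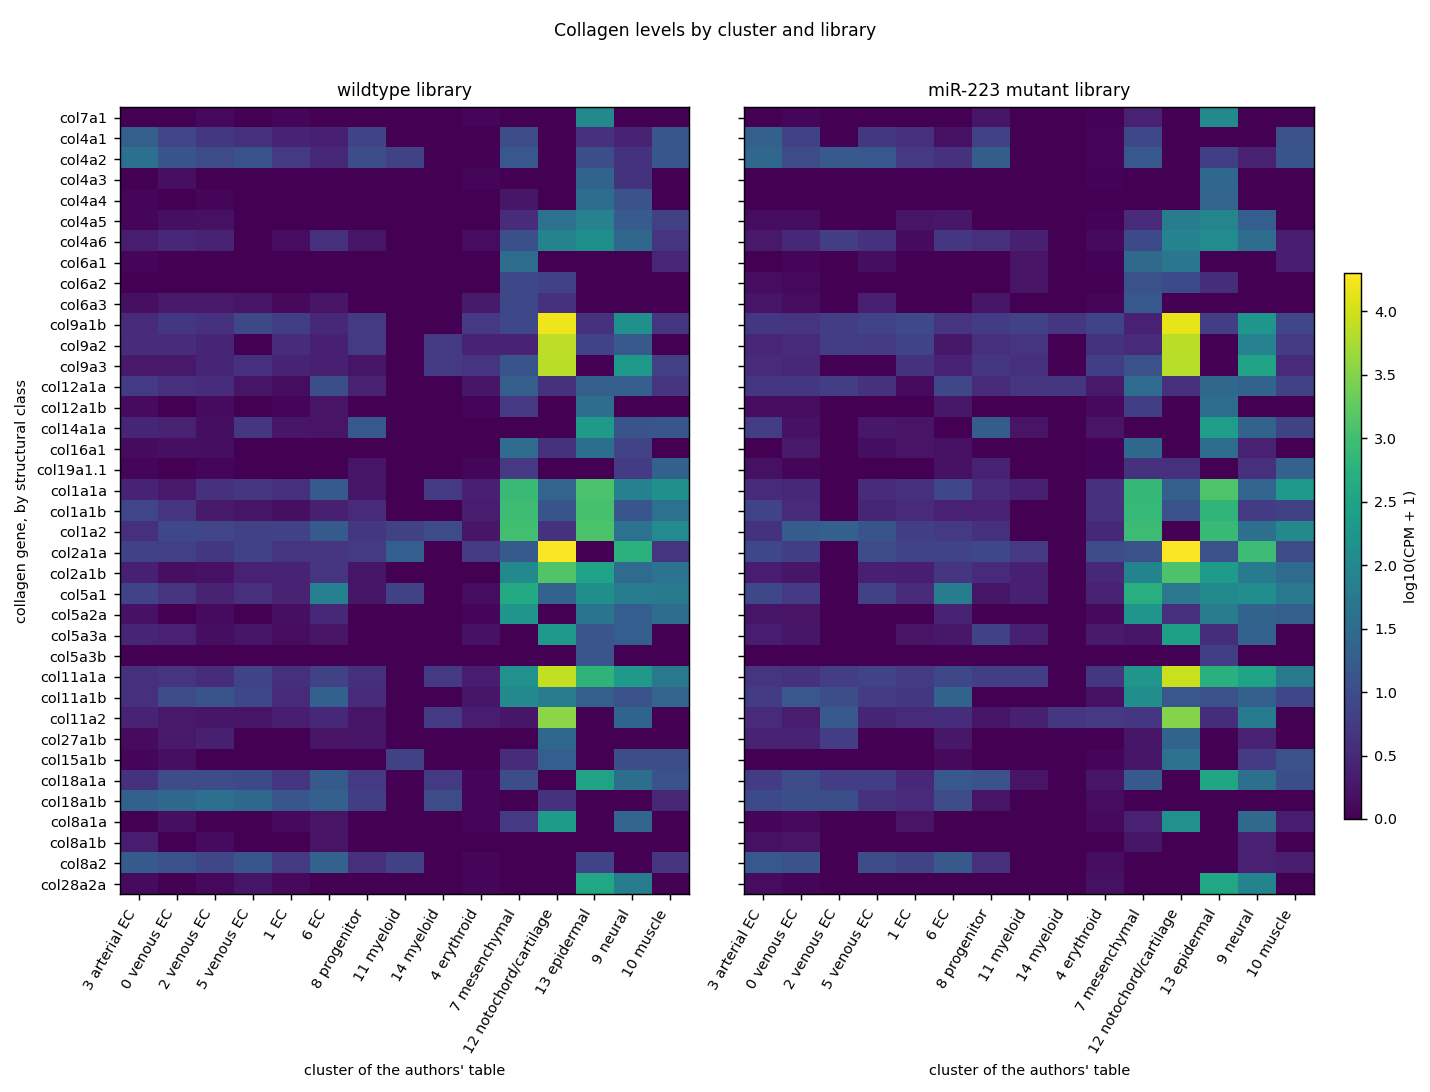
Level of each of the 38 collagen genes (log10 of CPM + 1, color) in each cluster of the authors' table, for the wildtype library (left) and the mutant library (right), genes ordered by structural class. The brightest cells are col2a1a and col9a1b in cluster 12, while the endothelial-like columns on the left stay dark for most genes.

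Read by where each gene was highest with both libraries pooled, 14 of the 38 collagens peaked in epidermal-like cells, where 9.98% of all 17822 features in the table peaked. The notochord and cartilage-marker cluster held the peak of 11 collagens, against 7.05% of all features. Mesenchymal-like cells held the peak of 7 collagens, against 4.96% of all features, and the arterial-like cluster 3 held the peak of 3, against 3.75%. The remaining 3 were col18a1b in the venous-like cluster 2, col8a2 in the endothelial-like cluster 6 and col19a1.1 in muscle-like cells, where 6.23%, 5.20% and 8.71% of all features peaked. The clusters were made from expression in the same cells, so these positions are a description.

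Type I collagen, the main fibril protein of skin and connective tissue, was shared by mesenchymal-like and epidermal-like cells. Its chain gene col1a2 stood at 997 CPM in wildtype and 891 CPM in mutant mesenchymal-like cells and at 1200 and 821 CPM in epidermal-like cells. The duplicated α1 gene col1a1a reached 802 and 721 CPM in mesenchymal-like and 1209 and 1294 CPM in epidermal-like cells. Its copy col1a1b stood at 904 and 762 CPM in mesenchymal-like cells and at 1131 and 649 CPM in epidermal-like cells. Every one of these levels lay far above the endothelial-like clusters, where col1a1a did not exceed 15.7 CPM. How reads that fit both copies were handled is not given in the sources used here, so the split between copies is uncertain.

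Type V collagen starts and limits the assembly of type I fibrils, and its genes col5a1 and col5a2a stood further above their epidermal-like level in mesenchymal-like cells than the type I genes did. The gene col5a1 was highest there, at 425 CPM in wildtype and 488 CPM in the mutant library, with 139 and 110 CPM in epidermal-like cells. The partner chain col5a2a followed at 174 and 177 CPM in mesenchymal-like cells. In contrast, col5a3a was highest in the notochord and cartilage-marker cluster, at 209 and 276 CPM. It had no UMI in wildtype mesenchymal-like cells, where 3 counts would be 2.56 CPM. Cells with a type I transcript were also the ones with type V. After each cell was thinned to 2000 UMIs, 61.1% of wildtype mesenchymal-like cells with col1a1a also had col5a1, against 15.7% of those without it. Among mutant cells the shares were 76.2% and 15.97%. For col1a1a and col1a2, the 2 chains of one molecule, the corresponding shares were 78.6% against 16.03% for wildtype and 78.4% against 14.97% for mutant cells. That mesenchymal-like class also held neural-like cells, which carried little type I collagen.

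The fibril collagens of cartilage and notochord, types II and XI, and their surface partner type IX were concentrated in cluster 12. The type II gene col2a1a alone took 19012 CPM of the wildtype and 18823 CPM of the mutant cells in that cluster. The type XI gene col11a1a stood at 8053 and 9062 CPM and col11a2 at 3507 and 3184 CPM. The type IX genes were of the same order, with col9a1b at 15460 and 14022 CPM, col9a2 at 7492 and 7157 CPM, and col9a3 at 7262 and 6848 CPM. The second type II gene col2a1b reached 1362 and 1254 CPM. Apart from col11a1a and col2a1b, these genes had a second, much lower level in neural-like cells. There, col2a1a stood at 553 CPM in wildtype and 889 CPM in mutant cells and col9a3 at 192 and 326 CPM. For col11a1a and col2a1b the second level was in epidermal-like cells, at 584 and 270 CPM with both libraries pooled. Smaller members of the same cluster were col27a1b, a fibrillar collagen of the notochord, at 27.6 and 22.1 CPM (74.03% of its 77 UMIs lay in the endothelial-like clusters), and col8a1a, a short network-forming chain expressed in zebrafish notochord, at 233 and 149 CPM. The third type XI gene did not follow this pattern. The level of col11a1b was highest in mesenchymal-like cells, at 107 and 125 CPM, and 60.02% of all its UMIs in the table lay in endothelial-like clusters. These large clusters held a greater share than that of the UMIs of all features, so 60.02% is no enrichment. The 74.03% of col27a1b was close to the share of all features.

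Over the 20 cluster and library columns with at least 100 cells, which leave out the epidermal-like cells and the notochord and cartilage-marker cluster, the genes closest to each collagen among 7310 features were ranked by Pearson's r of log2(CPM + 1). Myeloid-like cluster 14 was also left out. The neural-like, muscle-like and myeloid-like clusters 9, 10 and 11 entered by their mutant column alone, and cluster 2 by its wildtype column alone. A high r can thus rest on a single column. The nearest feature to col1a1a was another collagen, col5a2a (r = 0.97), and col11a1a and col2a1b were each other's nearest (r = 0.97). The column values share library depth and the authors' clusters, so r is a description of likeness only.

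The 6 type IV genes lie in 3 neighbouring pairs in the RefSeq gene order, col4a1 with col4a2, col4a3 with col4a4 and col4a5 with col4a6, and the levels differed between the pairs. Type IV chains of a pair are known to combine into 1 protein network. The pair col4a1 and col4a2 belongs to all basement membranes of the body and was highest in arterial-like cells. There, col4a1 stood at 19.3 CPM (interval 16.04 to 23.1) in wildtype and 19.9 CPM (interval 16.3 to 24.1) in the mutant library. Its partner col4a2 stood at 36.6 CPM (interval 32.0 to 41.6) and 26.5 CPM (interval 22.3 to 31.2). Both genes were below 15 CPM in the other endothelial-like clusters and had no UMI in cluster 12, where 3 counts would be 9.20 CPM for wildtype cells and 8.28 CPM for mutant cells.

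The pair col4a5 and col4a6 was highest outside the endothelium, although 14.8% of the col4a5 and 30.03% of the col4a6 UMIs in the table lay in the large endothelial-like clusters. In epidermal-like cells col4a6 stood at 135 and 118 CPM and col4a5 at 78.7 and 91.2 CPM, and in the notochord and cartilage-marker cluster they stood at 82.8 and 80.1 CPM and at 39.9 and 63.5 CPM. Neural-like cells followed with 26.3 and 33.3 CPM of col4a6. The pair col4a3 and col4a4, which in mammals belongs to the specialised membranes of kidney and lens, was rare. Its highest level was in epidermal-like cells, at 22.05 and 26.8 CPM of col4a3 and 34.6 and 24.2 CPM of col4a4, counted on 43 and 46 cells. The 22 UMIs of col4a3 and the 31 of col4a4 in the table show where the genes were used but not small differences.

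**Figure D2:**
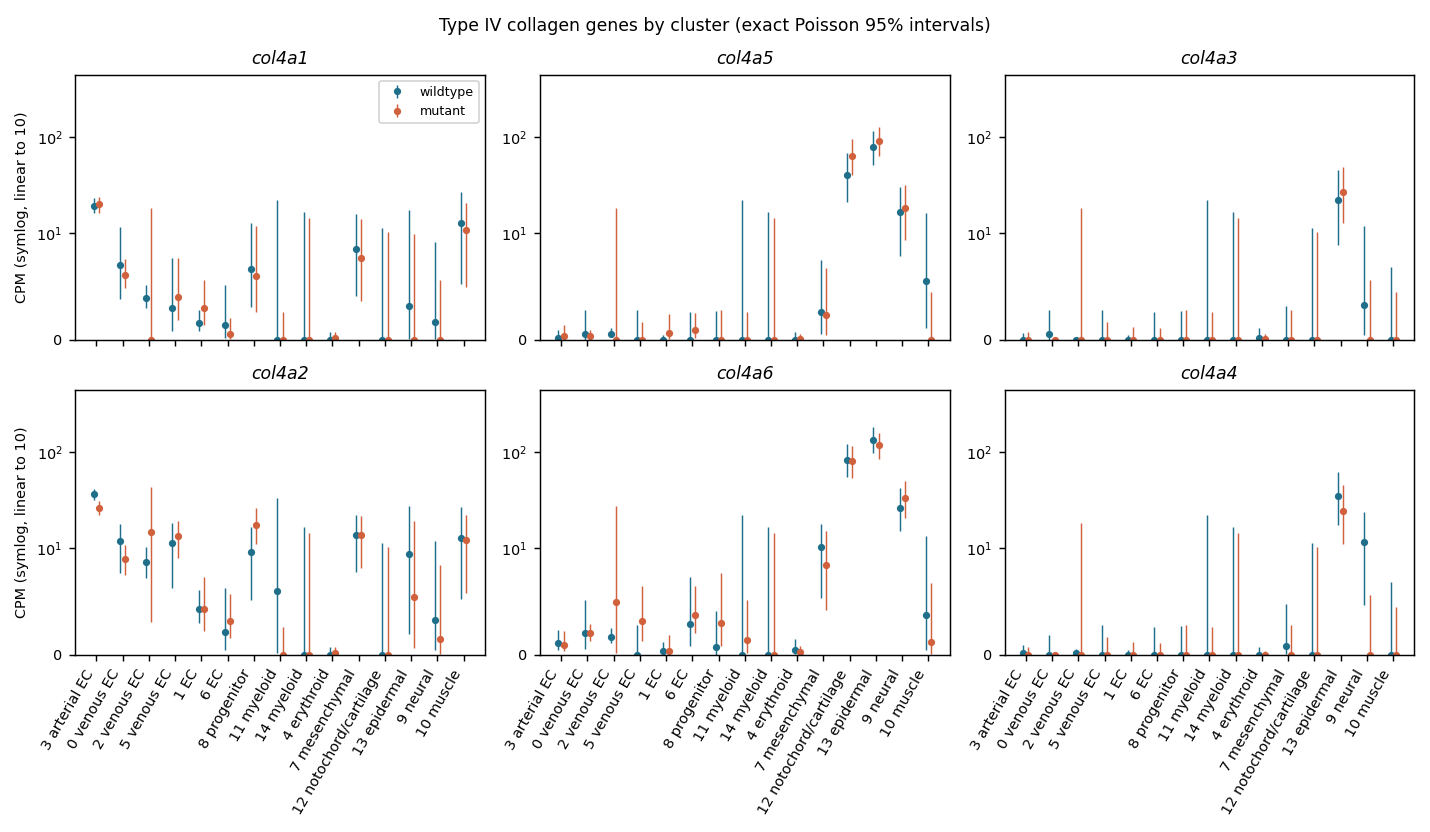
CPM of the 6 type IV genes (symmetric log axis, linear up to 10) in each cluster of the authors' table, wildtype in blue and mutant in orange, points with exact Poisson 95% intervals. The pair col4a1 and col4a2 (left) is highest in arterial-like cluster 3, and the other pairs are highest in epidermal-like cluster 13.

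Summed over all 6 genes, type IV collagen in the arterial-like cluster stood at 57.3 CPM in wildtype and 47.7 CPM in the mutant library. This was 4.60-fold (interval 3.95 to 5.35) the level of the other endothelial-like clusters in wildtype and 3.17-fold (interval 2.68 to 3.74) in the mutant library. Hematopoietic progenitor-like cells, which arise from arterial endothelium, held 17.04 and 26.3 CPM, and erythroid-like cells 0.611 and 0.884 CPM. The features closest to col4a2 were cebpd (r = 0.85), a transcription factor gene, and pdgfba (r = 0.85), a growth factor gene of arterial endothelium.

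Type VI collagen, the beaded filament of muscle and connective tissue, was low in the table. The gene col6a1 was highest in mesenchymal-like cells and cluster 12. It stood at 31.5 and 29.8 CPM in mesenchymal-like cells. In cluster 12 it had no UMI in wildtype cells (3 counts would be 9.20 CPM) and 46.9 CPM in the mutant library. That difference rests on 46 wildtype and 48 mutant cells. In the notochord and cartilage-marker class clustered anew from the raw matrices, with 48 cells in each library, col6a1 was present in both. It had 4 wildtype UMIs there, at 7.92 CPM, against 45.2 CPM in the mutant library. The remaining type VI genes of the table, col6a2 and col6a3, did not exceed 15 CPM in any cluster. In endothelial-like clusters lay 47.9% of the 71 UMIs of col6a3, below the share of the UMIs of all features there. No type VI gene reached 1.5 CPM in any endothelial-like cluster.

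Several further collagens marked epidermal-like cells. The anchoring-fibril collagen col7a1, which ties the epidermis to the dermis, stood at 107 CPM in wildtype and 115 CPM in the mutant library there and at most 1.53 CPM in any other cluster. The type XXVIII gene col28a2a stood at 375 and 368 CPM and had a second level in neural-like cells at 62.4 and 86.2 CPM. The fibril-associated col14a1a reached 211 and 250 CPM. The multiplexin col18a1a reached 296 and 354 CPM. The much larger endothelial-like clusters nevertheless held 54.9% of its UMIs, which was below their share of the UMIs of all features. Other members of the fibril-associated class, apart from type IX, had lower levels. Of these, col12a1a stood at 18.7 and 30.6 CPM in mesenchymal-like and 18.9 and 26.8 CPM in epidermal-like cells, and col16a1 at 30.7 and 25.99 CPM in mesenchymal-like cells. Muscle-like cells led for a single collagen, col19a1.1, known in zebrafish as a cue for motor axons, at 20.3 and 21.7 CPM.

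Within the endothelium, the gene that stood out for its distribution was col18a1b, the second type XVIII gene, with 98.4% of its UMIs in endothelial-like clusters. In the wildtype library it was detected in all 6, from 12.98 CPM in cluster 1 to 36.0 CPM in the venous-like cluster 2, with 20.3 CPM in arterial-like cells. Those clusters held a smaller share of the UMIs of all features. The network-forming col8a2, known from vessel walls and the cornea, had 96.8% of its UMIs in endothelial-like clusters, likewise above that share. Its highest level was in cluster 6, the cluster led by aqp8a.1, at 21.4 CPM in wildtype and 14.7 CPM in mutant cells, and arterial-like cells followed at 15.2 and 14.5 CPM. The features closest to col8a2 were the endothelial receptor gene kdrl, ildr2 and slc22a7b.1 (r = 0.96 each), and the closest to col18a1b was ccm2l (r = 0.94), a gene of endothelial junction control. Fibrillar collagens also differed between endothelial-like clusters, since cluster 6 held 142 CPM of them in wildtype and 122 CPM in the mutant library while the other 5 held 23.9 to 54.3 CPM. In cluster 6, col5a1 made up 69.8 and 61.9 CPM of these.

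The comparison of the libraries asked whether collagen expression of endothelial-like cells differed with the miR-223 genotype. For it, cells were clustered anew from the raw matrices without collagens among the clustering genes, which gave 5085 wildtype and 4390 mutant endothelial-like cells. Type IV collagen stood at 21.96 CPM in wildtype and 22.8 CPM in the mutant cells, a ratio of 1.04 (interval 0.937 to 1.15). Multiplexins were lower in the mutant cells, at 36.0 against 16.7 CPM, a ratio of 0.465 (interval 0.420 to 0.514). Fibrillar collagens were higher, at 46.9 against 75.0 CPM, a ratio of 1.60 (interval 1.51 to 1.70), and fibril-associated collagens as well, at 11.8 against 19.8 CPM, a ratio of 1.68 (interval 1.49 to 1.90). Of the 54 genes, 9 had a mean of at least 5 CPM in these cells. Among those 9, col2a1a, col1a2 and col5a1 were at least 1.5-fold higher in the mutant cells, on the log2(CPM + 1) scale on which 4.08% of 7206 features were, and col18a1b was at least 1.5-fold lower, as were 3.26%. Of these, col2a1a was detected in no larger a share of endothelial-like than of erythroid-like cells beyond counting error, and without it the log2 ratio of the fibrillar sum was 0.56 instead of 0.67. The wildtype level of col2a1a was below 5 CPM, so this gene passed the mean through its mutant level alone. Such a filter favours a call as higher, and the count of higher genes includes it. The median log2 ratio of the 9 was 0.26, beside 0.04 over all features.

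The lower multiplexin sum went with col18a1b. It stood at 27.9 CPM (interval 26.2 to 29.6) in wildtype and 8.49 CPM (interval 7.51 to 9.55) in the mutant cells, a ratio of 0.304 (interval 0.265 to 0.348) and a log2 ratio of -1.61. The other type XVIII gene col18a1a stood at 7.91 and 8.12 CPM, a ratio of 1.03 (interval 0.866 to 1.22). The lower level of col18a1b was present in all 6 of the authors' endothelial-like clusters. It stood at 27.4 CPM in wildtype against 9.91 CPM in mutant cells of cluster 0, 12.98 against 2.30 CPM in cluster 1 and 20.3 against 8.26 CPM in the arterial-like cluster 3. In cluster 5 it stood at 26.1 against 3.13 CPM and in cluster 6 at 19.96 against 8.92 CPM, and cluster 2, with 31 mutant cells, gave 36.0 against 9.87 CPM. In those 31 cells 3 counts would be 14.8 CPM. The mutant value was below the wildtype value in every cluster. The lower level was present within clusters and not in the pool alone, and it kept its sign under 14 of 14 alternative settings, with log2 ratios from -1.94 to -1.57.

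**Figure D3:**
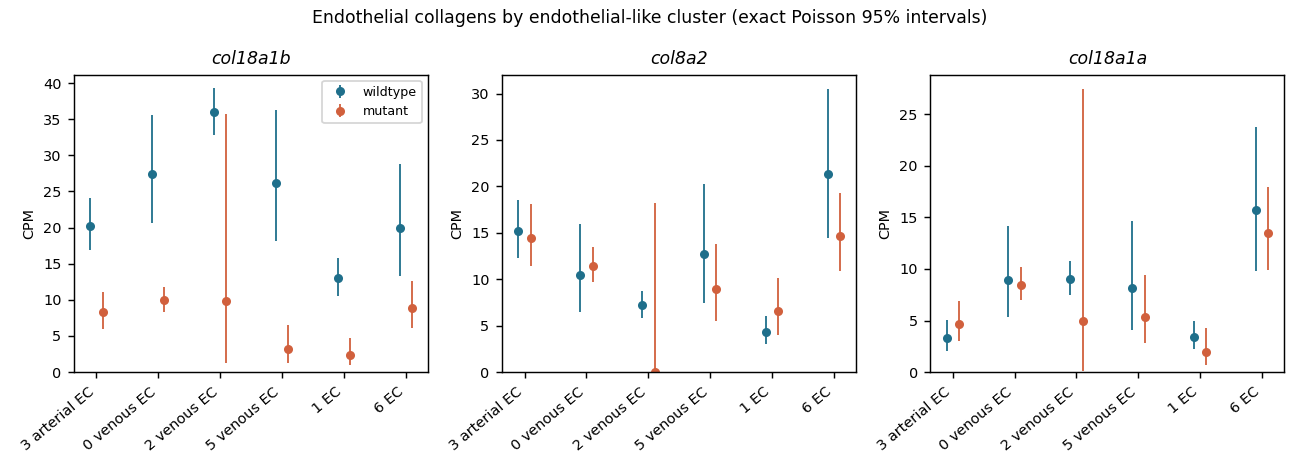
CPM of col18a1b, col8a2 and col18a1a in the 6 endothelial-like clusters of the authors' table, wildtype in blue and mutant in orange, points with exact Poisson 95% intervals. For col18a1b the mutant point lies below the wildtype point in each cluster, which the other genes do not show.

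Counted by cells, the same gene gave the same order. At 2000 UMIs per cell, col18a1b was detected in 5.49% (Clopper-Pearson interval 4.84 to 6.18) of wildtype and 1.55% (interval 1.19 to 1.98) of mutant endothelial-like cells. In erythroid-like cells, as background, no UMI was found in 1297 wildtype cells, where 3 cells would be a share of 0.231%. The share was 0.152% of 2639 mutant cells. Median depth before thinning was 6912 and 7092.5 UMIs in endothelial-like and 30874 and 27712 UMIs in erythroid-like cells. Thinning left out 491 wildtype and 320 mutant endothelial-like cells that held fewer UMIs.

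The 2 vascular type IV genes did not differ beyond counting error in the pooled endothelial-like cells. The ratio of mutant to wildtype was 1.14 (interval 0.958 to 1.36) for col4a1, at 7.09 and 8.09 CPM, and 0.923 (interval 0.806 to 1.06) for col4a2, at 12.99 and 11.99 CPM. By kind of vessel, the type IV sum was 47.7 CPM in wildtype and 44.1 CPM in mutant arterial-like cells, a ratio of 0.923 (interval 0.801 to 1.06). In venous-like cells it was 14.2 and 18 CPM, a ratio of 1.26 (interval 1.08 to 1.47). That pool joins new clusters split by library, with 2120 wildtype and 2 mutant cells in 1 and 60 and 1875 in another. By the authors' endothelial-like clusters the type IV sum was higher in the mutant cells of 4 and lower in 2, the venous-like cluster 0 among the lower. Among the higher was cluster 2, where 31 mutant cells held 1 UMI of col4a6 and 3 of col4a2. In cluster 0, col4a1 stood at 6.97 against 6.07 CPM and col4a2 at 11.9 against 8.99 CPM, on 14 and 24 wildtype UMIs. The authors' arterial-like cluster gave 57.3 and 47.7 CPM, a ratio of 0.832 (interval 0.706 to 0.980), with col4a2 at 36.6 and 26.5 CPM. The difference between arterial-like and venous-like cells was not tested. The network collagen col8a2 was higher in the pooled mutant cells, at 9.05 against 11.99 CPM, a ratio of 1.32 (interval 1.14 to 1.54), but lower in 4 of the 6 authors' clusters (cluster 2, with 31 mutant cells, had no mutant UMI), and its direction depends on how the clusters are weighted.

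**Figure D4:**
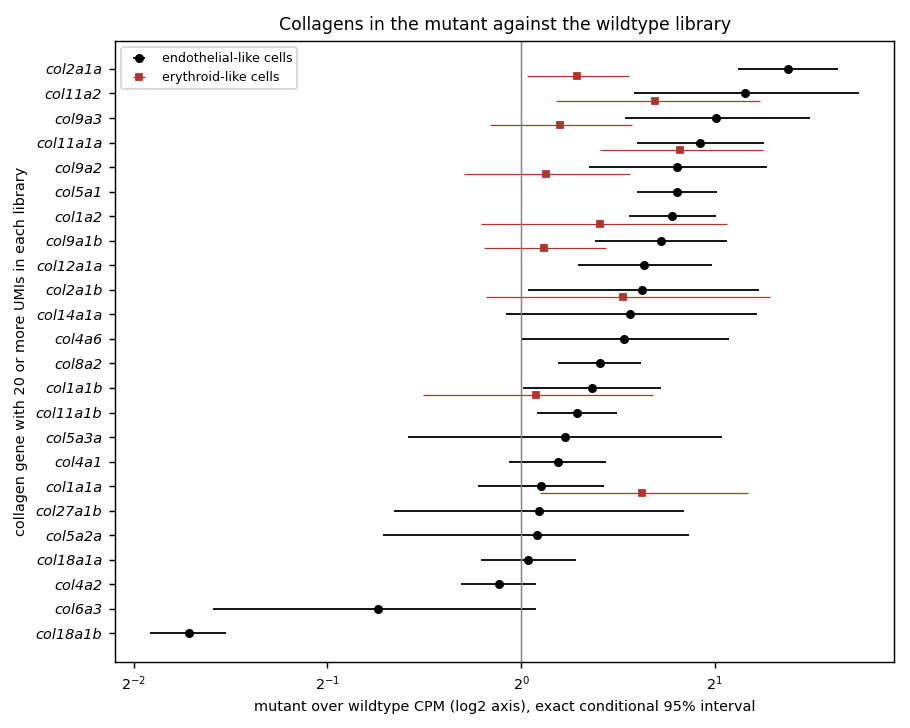
Ratio of mutant to wildtype CPM (log2 axis) with exact conditional 95% intervals for the 24 collagen genes with at least 20 UMIs in endothelial-like cells of each library (black), and for those of them with as many UMIs in erythroid-like cells (red). The point of col18a1b lies far to the left, and several fibrillar and fibril-associated genes lie to the right in both cell types.

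The higher fibrillar level of the mutant library is less firm. In single genes, col5a1 stood at 8.63 against 15.1 CPM, col1a2 at 7.36 against 12.6 CPM, col11a1a at 3.36 against 6.38 CPM and col2a1a at 4.87 against 12.6 CPM. In the authors' clusters the fibrillar sum was higher in the mutant cells of 5 of the 6, with ratios of 1.21 in the arterial-like cluster 3, 1.22 in cluster 5, 1.35 in cluster 1, 1.44 in cluster 0 and 1.56 in cluster 2. The last and largest ratio rests on 31 mutant cells. In cluster 6, which had the highest fibrillar level, the ratio was 0.859 (interval 0.724 to 1.02). This cluster held 180 wildtype and 467 mutant cells, so the pooled mutant sum draws more on it. With every cluster of at least 100 cells in each library given the same weight, the log2 ratio of the fibrillar sum was 0.32 over the new clusters and 0.25 over the authors', beside 0.67 in the pool. Only 3 new clusters had that many cells. The new clusters split by library, with 2120 wildtype and 2 mutant cells, 60 and 1875, and 896 and 21, were left out. Of the authors' clusters 5 were used, without cluster 2. The weighted values thus cover only part of the pooled cells.

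The level of fibrillar transcripts in the newly clustered erythroid-like cells moved the same way, at 12.03 CPM in wildtype and 16.7 CPM in mutant cells, a ratio of 1.39 (interval 1.25 to 1.55). Those cells had medians of 30874 and 27712 UMIs, while the authors' erythroid-like cluster averaged 9052 and 9115. In that cluster, with both libraries pooled, col2a1a stood at 7.36 CPM, col11a2 at 3.25 CPM and col11a1a at 2.98 CPM. Its sum of all collagens, given above, was also higher in the mutant library. Few cells carried much of the endothelial sum: 34 wildtype cells with at least 5 fibrillar UMIs held 22.4% of it, and 39 mutant cells held 30.9%. In a venous-like cluster of 896 wildtype and 21 mutant cells, the mutant cells held 162 fibrillar UMIs, of which 160 lay in 1 cell. As a sum these 21 cells stood at 2249 CPM of fibrillar collagens and 47098 CPM of erythroid markers. Notochord markers stood at 319 CPM, mesenchymal markers at 278 CPM and cartilage markers at 69.4 CPM in them. Without that cluster the log2 ratio was 0.53, but the wildtype cell with 144 fibrillar UMIs lay outside the cluster and was kept. Markers of mesenchymal cells over all endothelial-like cells were near equal, with all 13 detected. They summed to 94.3 CPM in wildtype and 97.3 CPM in the mutant library. Most of each sum was foxc1a, at 53.2 and 49.7 CPM, and in arterial-like cells meox1 led, at 77.0 and 78.9 CPM. The sum thus does not tell transcripts of mesenchymal cells from those of endothelial-like cells. Markers of cartilage over all endothelial-like cells summed to 3.92 and 4.12 CPM, with matn1 at 0 in both. Those of notochord, with shhb at 0 in both, summed to 83.2 CPM in the wildtype cells and 133 CPM in the mutant cells. Without cav1, which endothelial cells also express, they summed to 34.8 and 59.8 CPM, a ratio of 1.72 (interval 1.60 to 1.84). Most of it was ntd5 at 30.5 and 54.99 CPM, while tbxta stood at 4.23 and 4.68 CPM. In 1 new endothelial-like cluster of 248 wildtype and 933 mutant cells, ntd5 stood at 108 and 149 CPM. In the authors' mesenchymal-like cluster 7 it stood at 374 CPM with both libraries pooled. The sum without cav1 thus does not tell notochord transcripts from those of other cells. The part of the cells rich in fibrillar UMIs, of notochord transcripts and of free transcripts in the fibrillar ratio was not tested.

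Summed over all 54 genes, collagens in endothelial-like cells stood at 128 CPM in wildtype and 148 CPM in mutant cells, a ratio of 1.16 (interval 1.12 to 1.21). By the authors' clusters the sum was lower in the mutant cells of 5 of the 6, so the pooled ratio is not a direction that the clusters share.

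As shares of cells at 2000 UMIs, 4.61% (interval 4.03 to 5.26) of wildtype and 4.89% (interval 4.25 to 5.597) of mutant endothelial-like cells had a type IV UMI, far above the 0.154% and 0.189% of erythroid-like cells. Epidermal-like cells had higher shares, of 39.0% and 37.5%, as did the notochord and cartilage-marker class, with 23.4% and 21.3%, while myeloid-like cells were lower. A fibrillar UMI was found in 7.10% (interval 6.37 to 7.88) and 10.1% (interval 9.24 to 11.1) of endothelial-like cells and in 2.54% and 2.88% of erythroid-like cells. For col2a1a the endothelial shares of 0.914% and 1.15% did not exceed the erythroid 1.16% and 1.14% by more than counting error, so this gene is read as background in endothelial-like cells. The share for col1a2 lay above its background of 0.154% and 0.114%, at 1.18% in wildtype and 2.24% in the mutant library. For col5a1 it was 1.48% and 2.38%, over 0 of 1297 wildtype erythroid-like cells (3 cells would be 0.231%) and 0.189% of mutant ones. In mesenchymal-like cells set apart from neural-like ones, 94.7% and 92.3% had a fibrillar UMI, and in the notochord and cartilage-marker class all 47 cells of each library did. Erythroid-like cells were deeper before thinning, so thinning removed a larger part of their UMIs. Without thinning, 25.02% of wildtype and 32.31% of mutant erythroid-like cells had a fibrillar UMI. The endothelial-like shares were then lower, at 20.98% and 27.5%, so the fibrillar order of these classes depended on thinning. The single-gene shares above are likewise values after thinning.

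**Figure D5:**
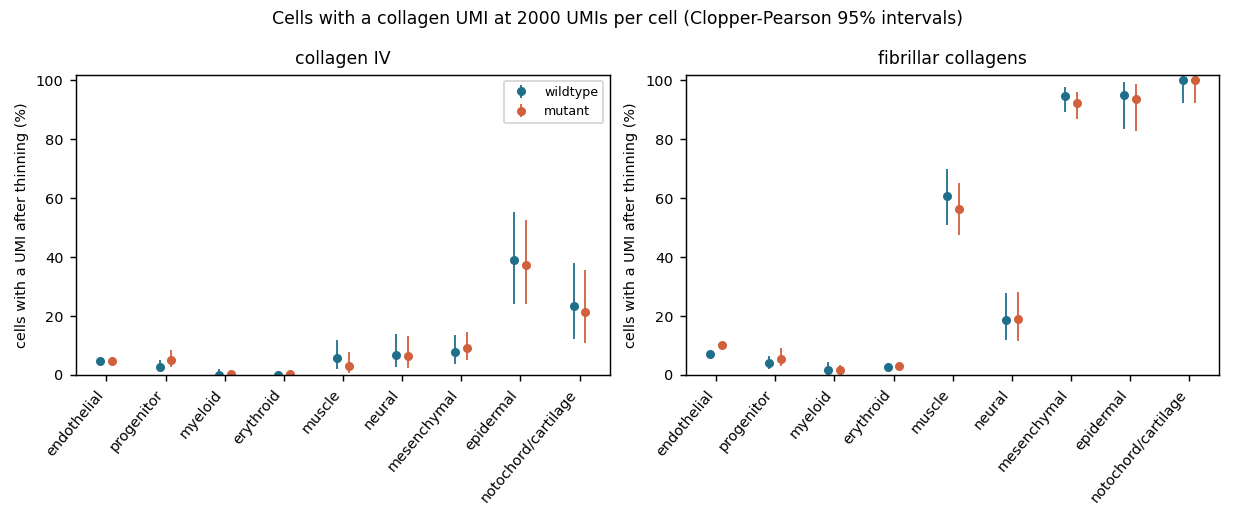
Share of cells with a type IV (left) or fibrillar (right) collagen UMI after thinning to 2000 UMIs per cell, by cell class, wildtype in blue and mutant in orange, points with Clopper-Pearson 95% intervals. Fibrillar shares span the whole scale, from 1.56% in wildtype myeloid-like cells to 100% in the notochord and cartilage-marker class (labelled notochord/cartilage).

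In the collagen-rich cells outside the endothelium, most type I values were lower in the mutant library. In mesenchymal-like cells set apart from neural-like ones (138 wildtype and 162 mutant cells), col1a1a stood at 1090 against 860 CPM, col1a1b at 1126 against 909 CPM and col1a2 at 1214 against 1013 CPM, while col5a1 stood at 611 against 680 CPM. In epidermal-like cells (42 and 49 cells), col1a2 stood at 1161 against 857 CPM and col1a1b at 1133 against 736 CPM, but col1a1a at 1630 against 1968 CPM. In muscle-like cells (107 and 131 cells), col1a2 stood at 147 against 109 CPM and col1a1b at 26.2 against 4.56 CPM. There, col1a1a stood at 280 against 268 CPM, a ratio of 0.955 (interval 0.856 to 1.07).

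In the same mesenchymal-like class, 28 collagens had a mean of at least 5 CPM, of which 7 were at least 1.5-fold higher in the mutant cells, as were 15.7% of all features, and 1 was lower, as were 8.90%. Of the 7, col2a1a stood at 383 against 613 CPM, col9a3 at 132 against 242 CPM, col9a2 at 8.28 against 98.4 CPM and col11a2 at 13.5 against 45.4 CPM. Other genes highest in cluster 12 stood closer, with col9a1b at 99.3 against 122 CPM, col11a1a at 313 against 418 CPM and col2a1b at 153 against 144 CPM. The lower one was col15a1b, a multiplexin of basement membranes, on 10 and 6 UMIs. Whether cells of cluster 12 were mixed into this class was not tested. The sum over all collagens in that mesenchymal-like class was 5756 CPM in wildtype and 5826 CPM in mutant cells, a ratio of 1.01 (interval 0.981 to 1.04). In the coarser class that includes neural-like cells the ratio was 1.12, and in the authors' mesenchymal-like cluster 0.938 (interval 0.901 to 0.978), so no direction held for the sum. In the notochord and cartilage-marker class it was 63030 and 63683 CPM, a ratio of 1.01 (interval 0.994 to 1.03).

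The genes that make and bind collagen were described by lists. Collagen is hydroxylated, glycosylated and folded in the endoplasmic reticulum before secretion. Of 24 listed features for these steps, 15 had a mean of at least 5 CPM in endothelial-like cells. Of these 15, p3h1 alone was at least 1.5-fold higher in the mutant cells (4.08% of all features were) and none was lower, with a median log2 ratio of 0.17 beside 0.04 over all features. The prolyl 3-hydroxylase gene p3h1 stood at 23.2 against 38.9 CPM, and p4hb, a subunit of prolyl 4-hydroxylase, at 127 against 173 CPM, a log2 ratio of 0.44. The collagen chaperone gene serpinh1b stood at 161 against 148 CPM, a log2 ratio of -0.13.

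Of the 20 listed basement membrane partners of type IV collagen, 7 passed the same level and none differed by 1.5-fold. The collagen-binding glycoprotein gene sparc stood at 191 against 263 CPM, a log2 ratio of 0.46, and the laminin chain gene lamb1b at 39.95 against 33.6 CPM, a log2 ratio of -0.24. Of 15 listed partners of fibrils, among them sparc again, 3 passed. The fibronectin gene fn1a was at least 1.5-fold higher in the mutant cells (4.08% of all features were), at 3.89 against 8.27 CPM. The wildtype level of fn1a was below the required mean, so this gene passed through its mutant level alone. Such a filter favours a call as higher. The periostin gene postnb stood at 743 against 728 CPM, a log2 ratio of -0.03. Of 17 features for maturation outside the cell 4 passed, with none past 1.5-fold, and of 13 collagen receptor features none passed, so receptors could not be described in these cells.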

How the data were processed

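Droplet 3′ libraries of sorted cells were made for 1 wildtype and 1 miR-223 mutant group. The deposited matrices hold raw UMI counts per gene and barcode, with 3.0.2 as the software version per the file headers; bcl2fastq, Cell Ranger, Seurat and GRCz11 are named per the submitters' processing notes. The authors' table holds a signal, the mean UMIs per cell of each cluster and library, as deposited. The number of cells of each cluster and library was inferred as the smallest number that made all values of its column whole within 1e-06. UMI sums were then taken as the 534660 values, over 17822 features, times these numbers. That the products are whole is thus no check of the cell numbers. Of 17819 features found in both, 17679 had sums within the matrix totals and the rest exceeded them, so the table may rest on another count of the reads.

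Barcodes needed 500 or more genes and no more than 10% mitochondrial UMIs (7520 wildtype, 8464 mutant). Doublets were called at an expected 6%, which removed 39 (0.519%) wildtype and 224 (2.65%) mutant cells. The remaining cells were clustered without collagens (scanpy 1.11.5, leidenalg 0.10.2, 2000 variable genes, 30 components, 20 neighbours, resolution 1, and 2 to part mesenchymal-like from neural-like cells) and named from marker lists. Cell names are thus rebuilt and may differ from the study's. Counts were summed per class and library. Log2 ratios of lists used a pseudocount of 1 CPM and only features averaging 5 CPM or more. Poisson, conditional binomial and Clopper-Pearson intervals at 95% (scipy 1.17.1, numpy 2.4.6) treat UMIs or cells as independent. Named genes were the 25 collagens with the highest level in a cluster of at least 100 cells and all type IV genes, and collagens named beyond these were chosen after their values were seen. The ratio intervals and fold calls were tested on simulated sums of independent counts. Clustering, cell names, doublet calls and thinning were not tested in this way. Members, lists and tests were chosen with earlier results of these data known. Sequences are not shown here.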

Additional observations from a re-analysis of the deposited data

Results flagged for a closer look

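Collagen classes had ratios on opposite sides of 1 in different cell types, and none of these differences was tested. The fibrillar ratio of mutant to wildtype was 0.863 in muscle-like and 0.906 in epidermal-like cells, against 1.60 in endothelial-like cells. Fibril-associated collagens gave 0.976 in the notochord and cartilage-marker class against 1.68 in endothelial-like cells. The sum of all collagens gave 0.877 in muscle-like and 0.949 in epidermal-like cells against 1.16 in endothelial-like cells. That endothelial sum has no shared direction, since it was lower in the mutant cells of 5 of the 6 authors' clusters.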

How the results depend on the processing

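No paired analysis was possible because each genotype has 1 library and the number shared by the labels pairs nothing. Depth limits single genes: most collagens had few UMIs in endothelial-like cells. Values are log2 ratios of mutant to wildtype in endothelial-like cells unless stated. The setting of all kept cells adds every other type, among them 1303 wildtype and 2646 mutant erythroid-like cells, which held little collagen. Its values thus do not describe endothelial-like cells alone. Equal weights used 3 of the new clusters, without those split by library, and 5 of the authors', without cluster 2, so they cover only part of the cells. The type IV sum was 0.05, and moved to 0.29 with new clusters of at least 100 cells weighted equally and to -0.51 over all kept cells of every type. The fibrillar sum was 0.67. It was 0.80 at resolution 2, with doublets kept and with every barcode, 0.32 and 0.25 with the new and the authors' clusters weighted equally, 0.53 without the cluster of 21 mutant cells, 0.56 without col2a1a, and -0.38 over all kept cells. All collagens gave 0.22, which became 0.11 in the authors' clusters, 0.14 with collagens among the clustering genes, 0.013 with equal weights, 0.15 without cells rich in markers of other types, 0.13 without the cluster of 21 mutant cells, -0.084 with the authors' clusters weighted equally and -0.44 over all kept cells. In mesenchymal-like cells all collagens gave 0.17, 0.017 at resolution 2, 0.055 as UMIs per cell, 0.081 when centred, -0.092 in the authors' cluster and -0.0027 with collagens among the clustering genes. Over all kept cells the sign also turned for col1a2 (-0.46), col1a1b (-0.57), col2a1a (-0.41), col5a1 (-0.034), col9a3 (-0.43), col11a1a (-0.29), col9a1b (-0.60), col11a1b (-0.34), col2a1b (-0.49), col9a2 (-0.46), col11a2 (-0.44), col8a1a (-0.17), col19a1.1 (-0.046) and col8a2 (-0.19). With equal weights it turned for col1a2 (-0.16), col2a1b (-0.18) and col8a2 (-0.074) in the new clusters, and for col2a1b (-0.048), col8a1a (-0.067) and col8a2 (-0.083) in the authors'. Signs also turned where the pooled interval covered no change, as for col4a1 (-0.38) and col4a6 (-0.33) over all kept cells, and col1a1a kept its sign in 9 of 14 settings. Of the named genes, col18a1b, col4a2, col12a1a and col28a2a alone kept theirs in 14 of 14. The cause was not tested. Shares with a type IV UMI were 2.36% and 2.85% at 1000 UMIs per cell and 13.3% and 14.1% without thinning for wildtype and mutant, and fibrillar shares were 3.88% and 5.57%, then 20.98% and 27.5%. In erythroid-like cells without thinning, type IV shares stayed lower, at 1.92% and 1.40%. Their fibrillar shares were higher than the endothelial-like ones, at 25.02% and 32.31%. The settings without col2a1a, without marker-rich cells, without the 21-cell cluster and with the authors' clusters weighted were chosen after seeing the data.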
